A study of Rattus norvegicus with 30 samples.

Results

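Uninduced cells of 4 inducible rat PC12 lines were compared on 8 of the 30 arrays of the series, those of the Q74 and Q23 lines on day 0. Of these arrays, 4 held RNA of Q74 lines 4 and 6 and 4 held RNA of Q23 lines 1 and 5, with 2 RNA isolations per line. Every line carried an exon 1 fragment of huntingtin fused to the Green Fluorescent Protein, with 74 glutamines in Q74 and 23 in Q23. The fragment was switched on with 1 μg/ml doxycycline, and the day 0 cells had received none. All of these lines, Q74 and Q23 alike, were kept in G418 and hygromycin. The same lines on days 1 and 5 of doxycycline (16 arrays) and PC12 cells without a construct (6 arrays, of which 2 at day 0) served for comparison. Each construct was represented by only 2 lines. A p-value of the day 0 comparison therefore rests on the spread between very few lines, pooled over days 0, 1 and 5 of the same lines. For later changes, fitted with the line as a block, a p-value rests on how differently these few lines changed. A difference shared by both lines of a construct cannot be assigned to the length of the glutamine stretch.

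PC12 cells are a line from a rat phaeochromocytoma, a tumour of the chromaffin cells of the adrenal medulla, and make catecholamines. Huntington's disease is caused by a lengthened CAG repeat in the huntingtin gene, and exon 1 fragments with a long glutamine stretch form aggregates in cells. In a doxycycline-controlled system the construct should be silent until the drug is given, but such promoters are known to allow some expression without it. Stable lines are also known to differ from each other through the place where the construct integrated and through differences between the cells they were grown from. The comparison at day 0 shows how far the lines of the 2 constructs stood apart before induction. The deposited values carry probe identifiers that are not paired with genes in the tables used here. No gene, marker list or transgene level could therefore be read, including the markers of chromaffin cells, and results are given for probes and lines.

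Values were the authors' VSN-normalized probe averages, read here as natural logs from their range, and a fold is the exponential of a difference between them, which understates the change of dim probes. The array medians at day 0 were 4.77 to 4.81 for Q74 and 4.77 to 4.80 for Q23. One line stood apart in the agreement of its RNA isolations. In Q74 line 4 the isolations were over 1.5-fold apart at 875 of 22521 probes, against 101 in Q74 line 6, 275 in Q23 line 1 and 89 in Q23 line 5. The main counts are also given without each of its isolations.

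In limma, 26 of 22521 probes (0.115%) separated the uninduced Q74 lines from the Q23 lines with an adjusted p under 0.05. Of these, 21 (0.0932% of all probes) were higher in the Q74 lines and 5 (0.0222%) were lower. The size of the difference had a median of 2.08-fold. It ranged from 1.56-fold to 11.1-fold among the higher probes and from 1.6-fold to 22.5-fold among the lower ones. In all but 1 of the 26 probes, every Q74 array lay on one side of every Q23 array. The exception was the probe of rank 19, at 5.63 and 6.22 in Q74 line 4 and 5.75 and 6.03 in Q74 line 6, against 5.36 and 5.54 in Q23 line 1 and 5.21 and 5.67 in Q23 line 5. Taken per RNA isolation, the difference between constructs was at least 0.40 along the direction of the call in both isolations of all 26 probes. The calls rest on the means of these same arrays, so both agreements follow in part from the choice of probes. The adjusted p ranged from 1.2e-06 to 0.046, with 6 residual degrees of freedom drawn from 3 days of the same 4 lines. In a fit of the day 0 values alone, 2 probes passed, 1 higher and 1 lower, and the largest unadjusted p among the 26 was 0.0018. Leaving out a Q23 line, either line 1 or line 5, left 1 call, while leaving out Q74 line 6 gave 195 and leaving out Q74 line 4 gave 820. Without the first isolation of Q74 line 4 at day 0 it was 28, and without the second it was 19.

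**Figure D1:**
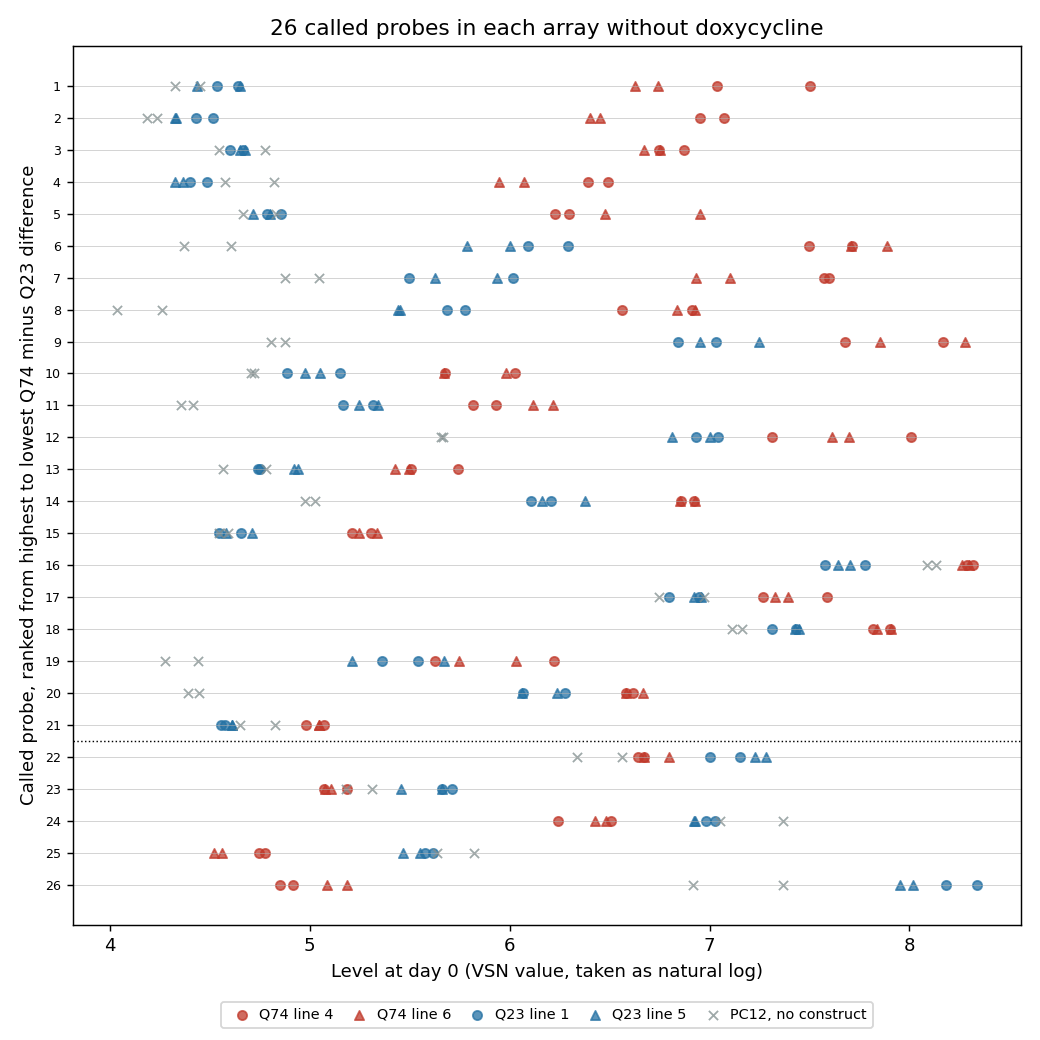
Level of the 26 called probes in each day 0 array (natural log), with one row per probe ranked from the highest to the lowest Q74 minus Q23 difference; red marks Q74, blue Q23 and grey crosses PC12 without a construct. The Q74 and Q23 arrays do not overlap in any row but that of rank 19, and the PC12 arrays lie nearer the Q23 lines in 23 of the 26 rows. The probes were called on these same Q74 and Q23 arrays.

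Among the called probes, the difference was largest upwards for ILMN_1375049. It read 7.04 and 7.50 in the isolations of Q74 line 4 and 6.74 and 6.63 in those of Q74 line 6, against 4.64 and 4.54 in Q23 line 1 and 4.43 and 4.65 in Q23 line 5. The Q74 lines were all far above the Q23 lines, and line 4 was the higher of the Q74 pair. The line means were 6.98 ± 0.41 for Q74 and 4.57 ± 0.035 for Q23 (SD, n = 2 lines each), a log2 difference of 3.48 ± 0.35 (SE, adjusted p = 0.011 in limma). ILMN_1349943 gave the same picture, with 7.07 and 6.95 in Q74 line 4 and 6.40 and 6.45 in Q74 line 6, against 4.43 and 4.52 in Q23 line 1 and 4.33 and 4.32 in Q23 line 5. Its log2 difference was 3.35 ± 0.35 (SE, adjusted p = 0.012 in limma), or 10.2-fold. In both probes the Q23 values were under 4.79, the median over all values, a range in which VSN is nearly linear and a fold is understated. In the fit of day 0 alone both had an adjusted p of 0.13. With a Q23 line left out, the adjusted p was 0.88 to 1 for ILMN_1375049 and 0.91 to 1 for ILMN_1349943, although the log2 difference stayed between 3.24 and 3.51.

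Among the called lower probes the largest difference was that of ILMN_1350888. It read 4.92 and 4.85 in Q74 line 4 and 5.09 and 5.19 in Q74 line 6, against 8.34 and 8.18 in Q23 line 1 and 7.96 and 8.02 in Q23 line 5. The groups were separated by 2.85, and the lines of one construct differed by at most 0.276. The log2 difference was -4.49 ± 0.23 (SE, adjusted p = 0.00011 in limma), and this probe also passed in the fit of day 0 alone (adjusted p = 0.016). Its adjusted p was 0.12 when Q23 line 1 was left out and 0.11 when Q23 line 5 was. PC12 cells without a construct had 7.37 and 6.92, between the groups and nearer Q23. ILMN_1349101 was next among the lower probes, with 4.74 and 4.77 in Q74 line 4 and 4.56 and 4.52 in Q74 line 6, against 5.62 and 5.58 in Q23 line 1 and 5.55 and 5.47 in Q23 line 5. It was 2.47-fold lower in Q74 (log2 difference -1.30 ± 0.099, SE, adjusted p = 0.0014 in limma). Its Q74 values lay below the median of all values. Its adjusted p was 0.19 in the fit of day 0 alone, 0.5 with Q23 line 1 left out and 0.38 with Q23 line 5 left out.

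The other probes fell into a group of large differences and a longer tail. Besides the named ones, 5 higher probes were over 4-fold apart. The tightest of these, of rank 3, read 6.75 and 6.87 in Q74 line 4 and 6.67 and 6.75 in Q74 line 6, against 4.67 and 4.60 in Q23 line 1 and 4.65 and 4.68 in Q23 line 5. Its lines differed by at most 0.099 within a construct, against a difference of 8.27-fold between the constructs, and it had the smallest adjusted p of all. In all, 15 of the 26 probes were over 2-fold apart, 13 higher and 2 lower, and 8 were over 4-fold apart, 7 higher and 1 lower. The side with the lower level lay below the median of all values in 7 of the 26. Many probes with large mean differences were not called. Of the 18 probes over 4-fold apart, 12 higher and 6 lower, 17 had both Q74 lines beyond both Q23 lines and 8 were called.

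Most separations of the pairs were small. In 7293 probes (32.4%) both Q74 line means lay beyond both Q23 line means, 3566 of them higher and 3727 lower, with a median difference of 1.1-fold. If the order of the line means were random, about this share of probes would be separated. The count alone therefore does not show a difference between the constructs. Requiring that all 4 Q74 arrays lie beyond all 4 Q23 arrays left 1121 probes (4.98%), 546 higher and 575 lower, with a median difference of 1.19-fold. Of those, 153 (0.679%) were over 1.5-fold apart, 88 higher and 65 lower. The balance of directions depended on the scaling. With arrays centred on their medians, 2418 of the separated probes were higher and 5058 lower, and with all arrays apart 346 were higher and 794 lower. Without the first isolation of Q74 line 4 at day 0, 2070 probes had all arrays apart, and without the second 1994. Those over 1.5-fold apart then numbered 194 and 197.

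A stricter count set the separation against the differences between lines. The gap between the nearest Q74 and Q23 lines exceeded both the difference between Q74 lines 4 and 6 and that between Q23 lines 1 and 5 in 2002 probes (8.89%), 1011 higher and 991 lower. With array medians centred these were 656 higher and 1403 lower. Only 85 of them (0.377%) were over 1.5-fold apart, 50 higher and 35 lower, or 52 higher and 23 lower after quantile normalization. All 26 called probes were among the 85, and in them the gap was 1.92 to 34.2 times the widest line difference, with a median of 5.25. This follows in part from the test, which divides the difference by the spread between lines. Among the 246 probes with a mean difference over 1.5-fold, 123 in each direction, the pairs of lines were separated in 81.3% and separated beyond line differences in 34.6%.

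**Figure D2:**
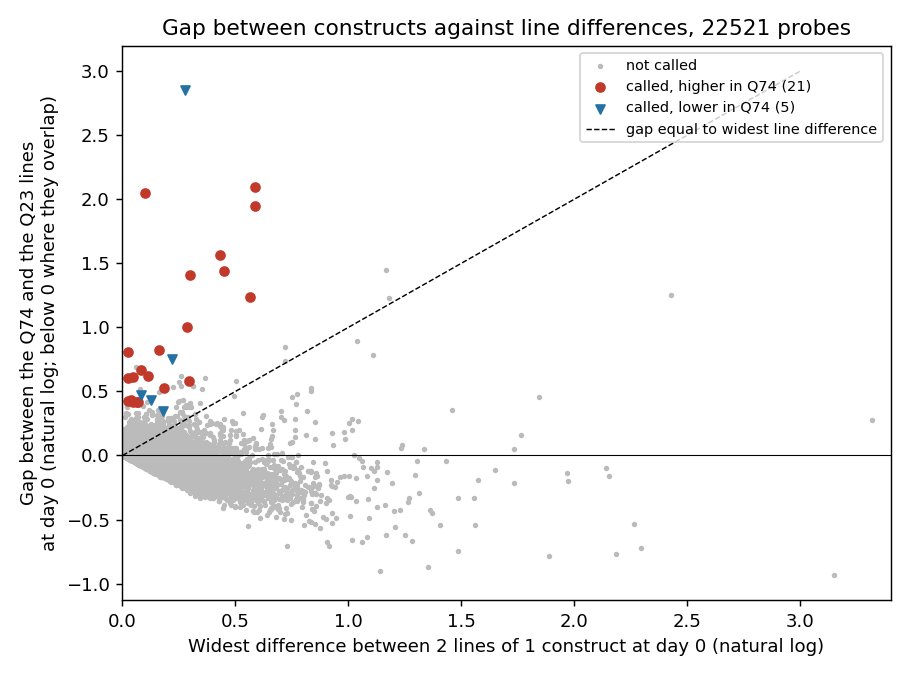
Gap between the nearest Q74 and Q23 line means at day 0 (y axis, natural log, below 0 where the lines overlap) against the widest difference between 2 lines of one construct (x axis, natural log) for 22521 probes. The 26 called probes lie above the dashed line of equality, while most probes lie near or below 0.

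The Q74 lines differed from each other at more probes than from either Q23 line. Q74 line 4 and Q74 line 6 were over 1.5-fold apart at 994 probes (4.41%). The pairs across constructs differed at 329 probes (Q74 line 4 against Q23 line 1), 370 (Q74 line 4 against Q23 line 5), 923 (Q74 line 6 against Q23 line 1) and 659 (Q74 line 6 against Q23 line 5), a mean of 570.25. Q23 lines 1 and 5 were the closest pair, with 125 probes (0.555%). Over all probes, the SD of the difference was 0.191 between the Q74 lines, 0.151 to 0.187 across constructs and 0.116 between the Q23 lines. These counts depended on the isolations of Q74 line 4. Without the first isolation of Q74 line 4 at day 0 the Q74 lines differed at 794 probes, fewer than the 923 of Q74 line 6 against Q23 line 1, and the pairs across constructs at a mean of 578.25. Without the second isolation the counts were 1805 and 909.75.

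**Figure D3:**
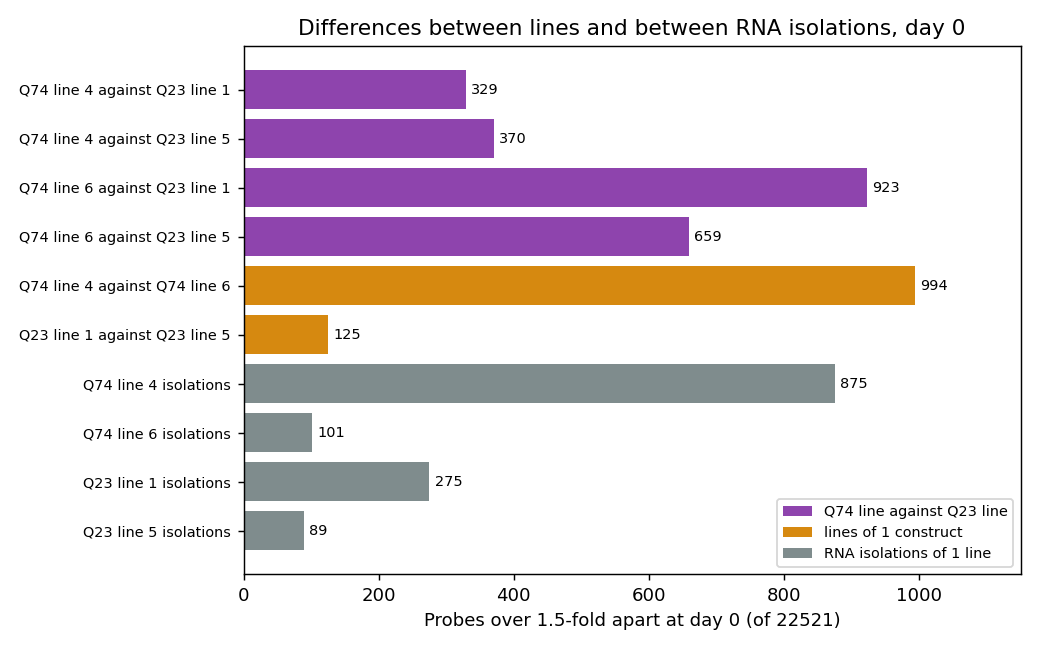
Number of probes over 1.5-fold apart at day 0 for each Q74 line against each Q23 line (purple), for the 2 lines of one construct (orange) and for the 2 RNA isolations of one line (grey). The Q74 pair has the longest bar, 994 probes, and the isolations of Q74 line 4 reach 875.

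Q74 line 6 lay over 1.5-fold beyond all the other 3 lines at 362 probes, 209 higher and 153 lower. Q74 line 4 did so at 107 probes, 83 higher and 24 lower. Q23 line 1 did so at 26 probes and Q23 line 5 at 20. By the same measure, both Q74 lines stood over 1.5-fold beyond both Q23 lines at 57 probes, 38 higher and 19 lower. Without the second isolation of Q74 line 4 at day 0 these counts were 431 for Q74 line 4, 363 for Q74 line 6 and 64 for the constructs, so that line 4 then stood apart at more probes than line 6. Without the first they were 123, 360 and 60. No test was made of these counts, since 2 lines of a construct give no spread to set them against.

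PC12 cells without a construct gave a further level at day 0. They were taken as 1 culture and were not tested, although their array labels differ in the field that gives the line elsewhere. The PC12 array means, 5.52 to 5.53, were below the 5.57 to 5.58 of the day 0 arrays with a construct. In 23 of the 26 called probes, 20 higher and 3 lower, PC12 was nearer the Q23 lines, also after quantile normalization or median centring of all 30 arrays. In 17 of the 21 higher probes PC12 lay beyond the Q23 level, on the side away from Q74, and not between the constructs. For 14 of the 21, however, PC12 was under the median of all values, and for 6 of them Q23 was too. The only higher probe with PC12 nearer Q74 was that of rank 16, at 8.32 and 8.29 in Q74 line 4 and 8.30 and 8.26 in Q74 line 6, against 7.58 and 7.78 in Q23 line 1 and 7.70 and 7.65 in Q23 line 5, where PC12 read 8.09 and 8.13, between the constructs. The lower probe of rank 22 had PC12 beyond the Q74 side, with 6.67 and 6.64 in Q74 line 4 and 6.80 and 6.67 in Q74 line 6, against 7.002 and 7.154 in Q23 line 1 and 7.28 and 7.23 in Q23 line 5, and 6.56 and 6.34 in PC12. Among the 153 probes with all arrays apart and over 1.5-fold, PC12 was nearer Q23 in 52.9%. It was nearer Q23 in 67.1% of the 85 separated beyond line differences, and in 47.8% of all 7293 probes with separated lines.

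Whether the day 0 differences were followed by a change of the Q74 lines in the same direction was then examined, with the line as a block in limma. At day 1, 96 of all probes (0.426%) had changed in Q74, and 0 of the 26 had, with 2 at an unadjusted p under 0.05. Of the 26, 9 had moved in the direction of their day 0 difference and 17 against it. The share along it, 34.6%, was near the 37.5% of all probes at day 1. At day 5, 2330 probes (10.3%) had changed in Q74, 1381 (6.13%) higher and 949 (4.21%) lower than at day 0. Of the 26 probes, 12 then moved in the direction of their day 0 difference and 14 against it. The changed ones were 9 (34.6%), of which 2 went further in the same direction and 7 went back. The share along the day 0 difference was 46.2% (exact binomial 95% interval 26.6% to 66.6%, with probes counted as if independent). Without the line as a block, 28 probes changed in Q74 at day 5, and 0 of the 26 did, with 8 at an unadjusted p under 0.05. Over all probes, 36.9% moved along their day 0 difference by day 5. The Q74 day 0 arrays enter both quantities with opposite sign, so an error in them pushes the change against the difference.

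The difference between the constructs persisted in all 26 probes. It kept its sign at day 1 and at day 5 in each of them, and the median size was 2.08-fold before induction, 2.07-fold after 1 day and 1.93-fold after 5 days. At day 5 the lines were still separated in 25 of the 26, and 20 were over 1.5-fold apart. By the same counts over all 22521 probes, 5377 were separated at day 5 and 606 were over 1.5-fold apart. The sign of the day 0 difference was kept in 14431 of all probes at day 1 and in 12579 at day 5. The levels of days 1 and 5 also entered the spread used to call the 26. For 4 probes the change to day 5 differed between Q74 and Q23 (adjusted p under 0.05, background 3.04% of all probes), and in all 4 the difference narrowed. The greatest was the probe of rank 9, with day 5 levels of 7.48 in Q74 line 4 and 7.10 in Q74 line 6, against 7.08 in Q23 line 1 and 7.13 in Q23 line 5. At day 0 its levels were 7.92 and 8.07 in the Q74 lines, against 6.94 and 7.10 in the Q23 lines. It fell by 0.702 in Q74 (adjusted p = 3.2e-05 in limma), while its change in Q23 was 0.087. The other 3 fell by 0.216, 0.238 and 0.294 in Q74. ILMN_1375049 also fell in Q74 by day 5, by 0.26 (adjusted p = 0.019 in limma), and remained 2.13 above Q23. ILMN_1349943, ILMN_1350888 and ILMN_1349101 changed by 0.0014, 0.053 and 0.03 in Q74 and passed no test of change.

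**Figure D4:**
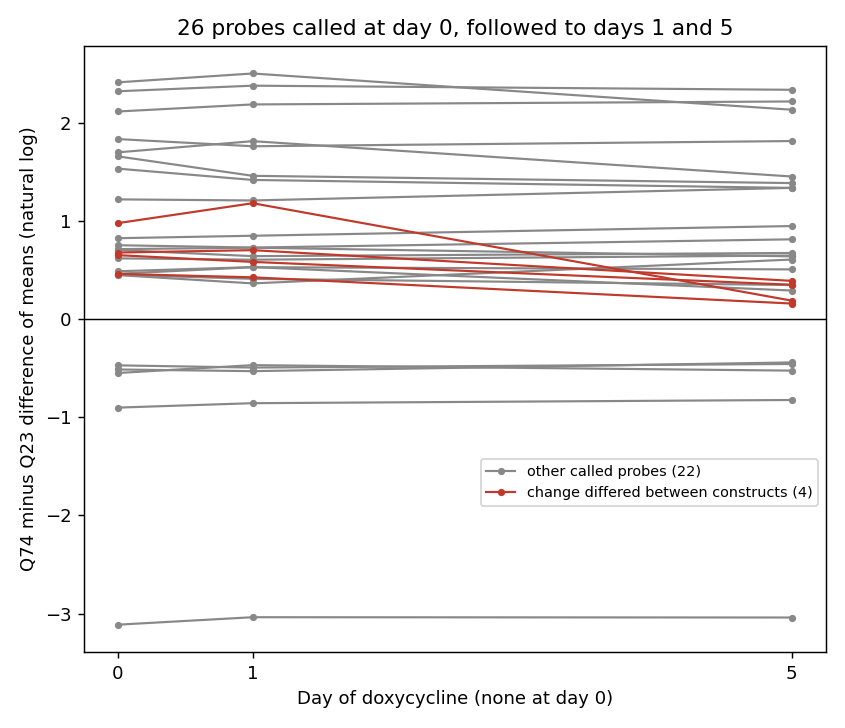
Q74 minus Q23 difference of line means (y axis, natural log) for the 26 called probes on days 0, 1 and 5 of doxycycline (x axis). No line crosses 0, and the 4 probes in red, whose change differed between constructs, narrow by day 5.

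The larger set was also split nearly evenly by direction. Of the 153 probes with all arrays apart and over 1.5-fold at day 0, 82 moved along the day 0 difference by day 5 and 71 against it. The share along it was 53.6%, against 36.9% of all probes. Of the 153, 34 changed along the day 0 difference and 36 against it at an adjusted p under 0.05 in limma. These 70 were 45.8% of the set, against 10.3% of all probes. The change differed between constructs in 3.04% of all probes. In the 153, the difference between constructs widened in 16 and narrowed in 17 by that test. The day 0 arrays that chose the set also enter these changes. Among the 85 probes separated beyond line differences, 40 moved along and 45 against. To keep the day 0 arrays apart, probes were also chosen with one RNA isolation and followed in the other. Of 11 probes called with the first isolation, 6 moved along the difference in the second by day 5. Of 22 called with the second, 9 did so in the first. Over all probes the shares along the difference were 48.5% and 50.2% in these choices. All 11 and all 22 kept the sign of their day 0 difference in the isolation that had not chosen them, with a median of 4.76-fold and 2.07-fold there. Of all 22521 probes, 13246 kept it. Both isolations came from the same lines, so this shows that the RNA measurement repeated and adds no further lines.

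The reverse question was where an uninduced Q74 line stood on the probes that respond to induction. The probes were chosen in one Q74 line and read in the other, which shares no array with the choice. This comparison was added after the data had been seen. In Q74 line 6, 254 probes changed by over 1.5-fold from day 0 to day 5, 105 of them up and 149 down. Along these directions Q74 line 4 moved by a median of 0.573 over the same 5 days, in 240 of the 254. Before induction, Q74 line 4 stood at a median of -0.0225 from the Q23 lines along the same directions, with 120 of 254 probes on the responding side. Its isolations gave -0.0614 and 0.04. Its medians by direction were taken as plain differences, positive where Q74 line 4 was above the Q23 lines. They were 0.0372 for the probes that later went up and 0.0479 for those that went down. The down probes thus stood against the response. The later changes of Q74 line 4 had medians of 0.461 for the up probes and -0.656 for the down probes. For scale, along the chosen directions Q23 line 1 stood at -0.0798 from Q23 line 5. The Q23 lines themselves changed along these directions by day 5 with medians of 0.0446 in line 1 and 0.0403 in line 5, larger in size than that day 0 distance of Q74 line 4.

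The choice in Q74 line 4 gave 844 probes, 426 up and 418 down. Along these, Q74 line 6 moved by a median of 0.235 from day 0 to day 5, in 780 of the 844. Before induction, Q74 line 6 stood at a median of 0.0448 from the Q23 lines, with 485 of 844 probes on the responding side. Its medians by direction were again taken as plain differences from the Q23 lines. They were -0.0239 for the probes that later went up and -0.152 for those that went down. The up probes thus stood against the response and the down probes with it. The later changes of Q74 line 6 had medians of 0.211 for the up probes and -0.266 for the down probes. Along the chosen directions, Q23 line 1 stood at -0.0336 from Q23 line 5. The day 5 changes of the Q23 lines themselves along these directions had medians of 0.012 in line 1 and 0.015 in line 5. Without the first isolation of Q74 line 4 at day 0 the choice gave 805 probes, a later change of 0.231 in Q74 line 6 and a day 0 distance of -0.0131, on the other side of 0. Without the second it gave 1519 probes and values of 0.155 and 0.0586. In both choices, the distance of the uninduced Q74 line from the Q23 lines was, over all chosen probes, smaller than its later change. It was least so for the down probes chosen in Q74 line 4, at -0.152 against -0.266. Expression of the constructs without doxycycline was not measured, and its part in the day 0 differences was not tested.

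**Figure D5:**
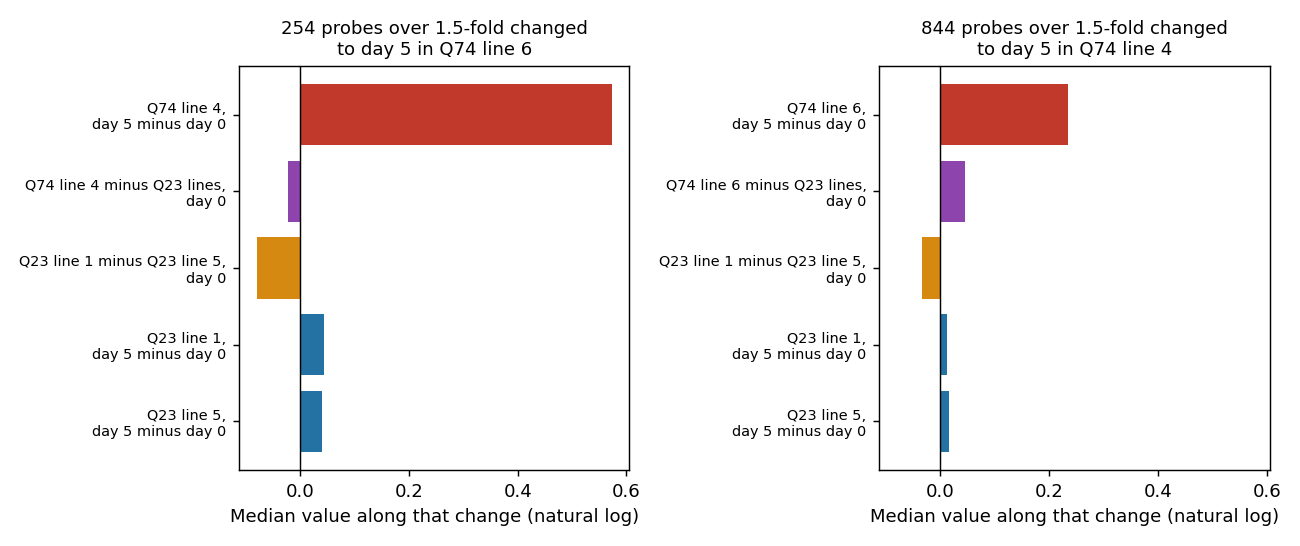
Median value, along the change in the line used to choose the probes, for 254 probes chosen in Q74 line 6 (left) and 844 chosen in Q74 line 4 (right), on the natural log scale. Up and down probes are pooled. The change of the other Q74 line to day 5 (red, 0.573 and 0.235) is larger than its day 0 distance from the Q23 lines (purple, -0.0225 and 0.0448). The day 0 distance between the Q23 lines is in orange (-0.0798 and -0.0336), and the day 5 changes of the Q23 lines are in blue.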

How the data were processed

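RNA of rat PC12 lines was hybridized to Illumina RatRef-12 arrays. Bead averages per probe were taken by the authors from BeadStudio, uncorrected for background, and put on a common scale with VSN. The deposited values were read as natural log (ln) values, because their maximum is near the natural log of a 16-bit signal, and the base is not stated in the sources used here. Batches could not be examined, since chips and dates are not in the labels.

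The 2 RNA isolations of each line and day were averaged, which gave 12 line means in 6 groups. In limma 3.58.1 (R 4.3.3), Q74 was compared with Q23 at day 0 in a fit of all 6 groups, two-sided, with Benjamini-Hochberg adjustment over 22521 probes and a threshold of 0.05. Changes from day 0 were fitted with the line as a fixed block (4 residual degrees of freedom). PC12 arrays entered no fit. The number of arrays limits the precision. The named probes were the 2 higher and the 2 lower with the largest difference among called probes with all arrays apart. The probes, lists and tests were chosen with earlier results of these data known. The lists of genes and markers could not be used, because probes are not paired with genes. Alternatives were other scalings, filters, fits and isolations, and leaving out each line. Python 3.11.15 and matplotlib 3.10.9 drew the figures.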

Additional observations from a re-analysis of the deposited data

Results flagged for a closer look

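Among the 4 Q23 arrays at day 0, the array medians were 4.77, 4.771, 4.773 and 4.804, and the second isolation of Q23 line 5 lay apart from the others, with a gap of 0.9 of the whole range. Chance alone flags about 5% of groups, and 10 groups were examined. The called probes whose change to day 5 differed between Q74 and Q23 numbered 4, all of them higher in Q74 at day 0 and nearer the Q23 lines at day 5 (adjusted p under 0.05 in limma).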

How the results depend on the processing

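The count of probes called at day 0 was 26. Under 9 of the 17 alternatives the count lay between 19 and 31, though the 1.5-fold filter among these could not change it. It was 2 with the day 0 values alone, 186 with each RNA isolation as a sample, 237 with the isolation number as a block besides, 11 without the second isolation, and 1 to 820 with a line left out. The lone line of a construct is then assumed to vary like the other groups. Probes with separated lines numbered 3513 without dim probes and 13831 to 15752 with a line left out. With all arrays apart there were 718 without dim probes, 3435 to 5252 with a line left out, and 2070 and 1994 without the first or the second isolation of Q74 line 4 at day 0. Separation beyond line differences gave 931 without dim probes and 6486 to 8396 with a line left out, and 127 to 646 over 1.5-fold. Fewer lines or arrays make separation easier by construction, and a filter leaves fewer probes. Without the second isolation, the Q74 lines differed at 1778 probes and the pairs across constructs at a mean of 1032.5. Without that of Q74 line 4 at day 0 alone, these were 1805 and 909.75, and the cause was not tested. The share of called probes moving along the day 0 difference was 46.2%, which leaving out the line as a replicate block cannot change. It was 28% after quantile normalization, 59.1% without the first isolation, 27.3% (3 of 11) without the second and 36.9% to 100% with a line left out, where the 100% is 1 probe. For the 153 probes it was 53.6%, 44.7% without the second isolation, 42.6% without that of Q74 line 4 at day 0, and 38.4% to 58.6% with a line left out. The named probes kept their direction under all 17 alternatives, although those that change only the fit or the filter leave the difference itself unchanged. They passed the threshold in 14 or 15 of them, and the exceptions were the fits without a Q23 line and, except for ILMN_1350888, that of day 0 alone. The alternatives that leave out an isolation of Q74 line 4 at day 0 were chosen after seeing the data. Few lines and dim probes, where VSN compresses differences, limit these counts.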

Other observations

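In Q74 line 4, arrays of the same isolation number on days 0 and 1 were closer than the isolations of either day. The first isolation at day 0 was over 1.5-fold from the first isolation at day 1 at 96 probes, and the second from the second at 63, while the isolations were apart at 875 probes at day 0, at 423 at day 1 and at 182 at day 5. Of the 875 probes, 852 were apart in the same direction at day 1, and 259 of these by over 1.5-fold. Over the other 9 pairs of isolations, from the other lines and days, the count was between 58 and 275.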
